A study of Mus musculus with 9 samples.

Results

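The 7 genes described here carry out antigen presentation by the major histocompatibility complex (MHC) class II in the mouse: H2-Aa, H2-Ab1, H2-Eb1, Cd74, Ciita, H2-DMa and H2-DMb1. They were found by gene symbol in a table of 56748 genes, and each symbol matched 1 gene. RNA of epididymal adipose tissue was sequenced in 9 libraries from wild-type (WT) male C57BL/6J mice that were 8 weeks old when feeding of a high-fat diet (HFD) began. The 3 Pre libraries came from mice fed HFD for 8 weeks, the 3 WL1 libraries from mice that then received standard diet (SD) for 1 week, and the 3 WL2 libraries from mice given SD for 2 weeks. All 3 phases therefore share 8 weeks of HFD, and among these libraries none came from mice kept on HFD for the same further time, so the change of diet cannot be told apart from time and age. The tissue was taken whole. The labels do not say whether a library came from 1 mouse or from pooled mice, and the p-values measure the spread between libraries.

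MHC class II molecules display peptides from engulfed proteins to CD4+ T cells. The α and β chains (H2-Aa with H2-Ab1 for I-A, and H2-Eb1 as the β chain of I-E) assemble in the endoplasmic reticulum with the invariant chain Cd74, which fills the groove and directs the complex to endosomes. There proteases such as cathepsin S cut Cd74 down to a short fragment, and the H2-DM dimer (H2-DMa with H2-DMb1) exchanges that fragment for a peptide. Ciita is the coactivator that switches on these genes. It binds no DNA itself and is held at their promoters by the factors RFX, NF-Y and CREB, which occupy the S, X and Y boxes. In adipose tissue class II is known from macrophages, dendritic cells and B cells, and has also been described on adipocytes. C57BL/6 mice carry a defective H2-Ea gene and so make no I-E dimer, although H2-Eb1 is transcribed. H2-Ea had 0 reads in each of the 9 libraries, against a limit of 3 reads for a count of 0, or 0.138 to 0.177 CPM (counts scaled to the size of the library).

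RefSeq promoter windows (GRCm38.p6) were matched for 4 of the 7 genes by symbol, with 2 windows for H2-DMa. Cd74, Ciita and H2-Ab1 were not matched. The 250 bases before the start were searched on both strands for the Y-box core GATTGG, for the X-box letters CAGATG, and for GNAAC followed after 15 to 40 bases by GATTGG. The last arrangement was added after the windows had been read. The 3 windows that hold it are printed 5′ to 3′ on the strand of the gene, to show letters like those of the X and Y boxes in these genes. Capitals mark the GNAAC letters and GATTGG.
H2-Aa: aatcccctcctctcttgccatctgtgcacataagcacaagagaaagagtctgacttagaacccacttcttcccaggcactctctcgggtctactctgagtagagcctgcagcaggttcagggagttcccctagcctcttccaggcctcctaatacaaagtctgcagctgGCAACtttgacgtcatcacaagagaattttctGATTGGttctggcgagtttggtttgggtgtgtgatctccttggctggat
H2-Eb1: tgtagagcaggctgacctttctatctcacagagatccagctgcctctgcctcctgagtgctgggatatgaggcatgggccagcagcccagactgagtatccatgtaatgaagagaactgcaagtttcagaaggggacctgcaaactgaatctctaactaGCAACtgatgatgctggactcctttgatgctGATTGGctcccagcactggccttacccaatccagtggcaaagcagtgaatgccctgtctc
H2-DMb1: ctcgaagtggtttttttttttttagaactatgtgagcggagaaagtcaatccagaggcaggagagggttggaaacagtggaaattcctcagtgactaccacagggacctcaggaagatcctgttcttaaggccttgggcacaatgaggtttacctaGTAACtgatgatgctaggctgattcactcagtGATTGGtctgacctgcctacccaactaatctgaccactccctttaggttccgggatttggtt
The H2-Aa window lies at chr17:34287824-34288073 on the minus strand, the H2-Eb1 window at chr17:34305617-34305866 on the plus strand and the H2-DMb1 window at chr17:34152941-34153190 on the plus strand. GATTGG began 49, 60 and 62 bases before the start, in that order. The gap between the elements was 27 bases in H2-Aa and H2-DMb1 and 26 bases in H2-Eb1. GATTGG was in 4 of the 5 windows of these genes, CAGATG in 1 and the arrangement in 3. In H2-DMa, GATTGG began 199 bases before the start in 1 of its 2 windows, and neither had the arrangement. These windows lie at chr17:34122582-34122831 and chr17:34125268-34125517 on the plus strand. Whether either precedes the start used in this tissue was not tested. The CAGATG match lay on the opposite strand of the H2-Aa window, near its 5′ end and apart from the marked letters. Of 32851 windows in the whole promoter table, 14.6% held GATTGG, 14.4% CAGATG and 1.25% the arrangement. A match describes letters and does not show binding.

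Library totals ran from 16434450 to 22729072 counts (Pre 18184813 to 22729072, WL1 17798709 to 21694533, WL2 16434450 to 17804883). CPM below are scaled by TMM factors of 0.933 to 1.07. The share of mitochondrial reads was 3.15 to 3.57% at Pre, 1.86 to 2.03% at WL1 and 2.28 to 2.88% at WL2. The summed level of 10 adipocyte markers was 39383 to 52794 CPM at Pre, 25961 to 34296 at WL1 and 44047 to 45519 at WL2. Of the adipocyte list, Car3, Cidec, Lep, Plin1 and Retn were called lower at WL1 than at Pre, and at WL2 against Pre Cidec and Lep were called lower and Cfd higher. Without Pre replicate 2, the calls of Plin1 at WL1 and of Cfd at WL2 were lost. Between WL1 and WL2, 3 were called higher and 1 lower (Car3, Cfd, Lep and Retn), with or without that library. Fabp4 was the other abundant adipocyte gene. Epididymis genes, Rnase10, Crisp1 and Spink13 among them, summed to at most 0.461 CPM in any library. The part of these differences in the results was not tested.

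Pre replicate 2 stood apart from the other 8 libraries in B-cell transcripts. A list of 16 B-cell genes had 15 highest in this library. Without Ebf1, Ighm and Cd22, which were left out after the values had been seen, the sum of the other 13 was 354 CPM in Pre replicate 2 and 9.78 to 35.3 CPM in the others. Cd79a, a component of the B-cell receptor, was at 67.1 CPM there and at 0.956 to 5.39 CPM elsewhere. T-cell markers were highest in this library for 9 of 11 genes. Cxcl13, which attracts B cells to lymphoid follicles, was at 153 CPM against 0.112 to 7.99 CPM. B cells are known to express class II. The fold changes of the 7 genes, and the medians or edgeR calls of the lists, are therefore given with and without this library where they involve Pre.

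The 7 genes took 0.225%, 0.498% and 0.318% of all counts in Pre replicates 1, 2 and 3. Their share was 0.295%, 0.332% and 0.442% at WL1 and 0.224%, 0.194% and 0.163% at WL2. In Pre replicate 2, 6 of the 7 had their highest value of the 9 libraries, H2-DMb1 being the exception, and their sum was 2.00 times the median of the other 8. Per length, on the FPKM scale of the authors' table, the order of levels was Cd74, H2-Eb1, H2-Ab1, H2-Aa, H2-DMb1, H2-DMa and Ciita in 9 of 9 libraries. Mean FPKM at Pre was 863 ± 327 (SD, n = 3) for Cd74, 284 ± 120 for H2-Eb1, 247 ± 96.5 for H2-Ab1 and 170 ± 79.8 for H2-Aa. It was 46.4 ± 9.60 for H2-DMb1, 17.0 ± 6.26 for H2-DMa and 3.35 ± 1.00 for Ciita. H2-Eb1, H2-Ab1 and H2-Aa thus lay within 1 SD of their neighbours among these 3 across the Pre libraries, while their FPKM order within a library did not vary. This order depends on the gene lengths in the authors' table (1944 bases for H2-Eb1, 2568 for H2-Ab1 and 3798 for H2-Aa). In reads, H2-Aa was at 0.946 to 1.18 per read of H2-Ab1 over the 9 libraries. The coactivator was the scarcest of the 7 transcripts in each phase, and the invariant chain the most abundant.

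**Figure D1:**
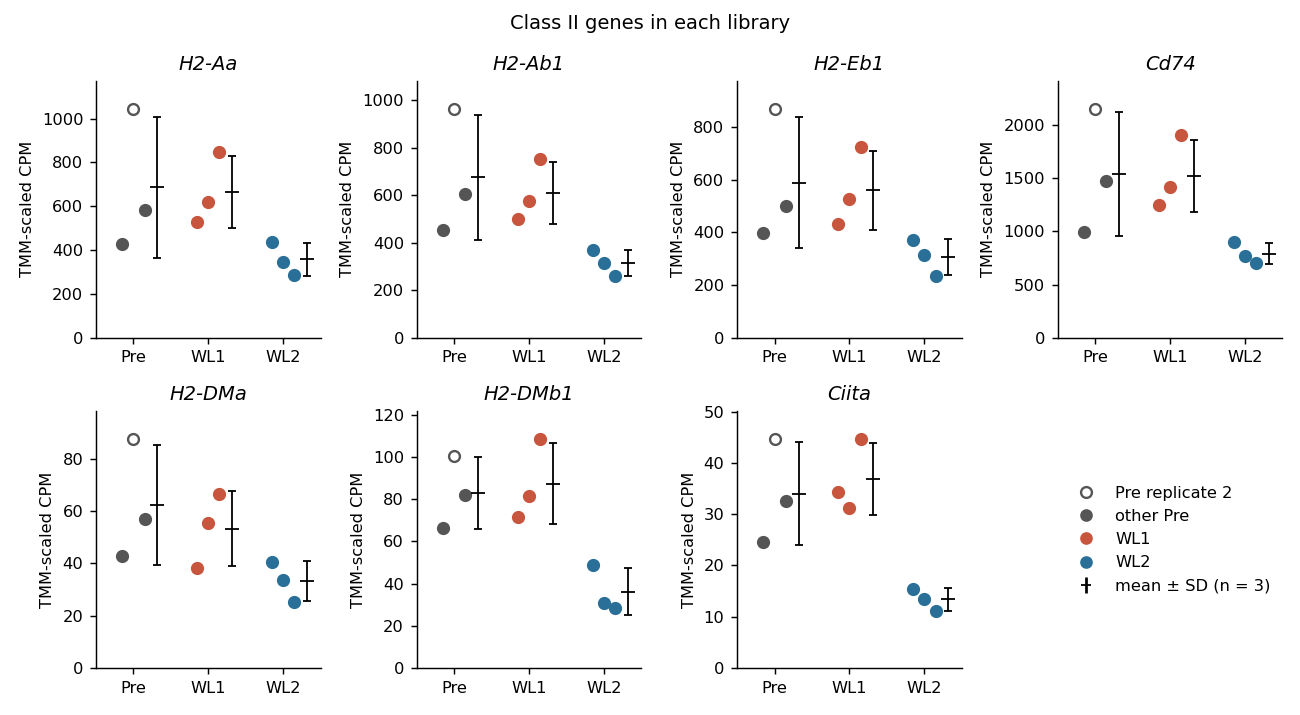
Level of each of the 7 class II genes (TMM-scaled CPM, linear axis from 0) in the 9 libraries, with replicates 1 to 3 from left to right in each phase and the mean ± SD (n = 3) beside them. The open circle is Pre replicate 2, the highest of all libraries for 6 of the 7 genes, and the WL2 libraries sit below the other 2 phases with an overlap only for H2-Aa at Pre and H2-DMa at WL1.

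Ciita, the coactivator, fell at WL2. It was at 24.7, 44.7 and 32.7 CPM in the Pre libraries, 34.4, 31.3 and 44.7 CPM at WL1, and 15.5, 13.5 and 11.1 CPM at WL2. No WL2 library reached any Pre or WL1 library. Against Pre, the log2 fold change at WL2 was -1.35 ± 0.23 (SE), 2.54-fold lower (adjusted p = 0.00475, edgeR quasi-likelihood test with Benjamini-Hochberg adjustment over 18510 genes). With Pre replicate 2 left out it was -1.10 (edgeR adjusted p = 0.00927). Against WL1 it was -1.46 ± 0.23, 2.75-fold lower (edgeR adjusted p = 0.0122), and without Pre replicate 2, which enters only through the estimate of spread, adjusted p was 0.00653. The call against WL1 was lost without WL2 replicate 2 (edgeR adjusted p = 0.0738) or replicate 3 (0.0633). Ciita is on chromosome 16 at 10297923 to 10346282 on the plus strand in the authors' table, whose build is not settled. Its span overlaps Dexi on the opposite strand, with 2496 reads in all against 4761 for Ciita, and no source used here gives the strand setting of the counting. In bulk tissue such as this, fewer cells of a type and less RNA per cell cannot be told apart.

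Cd74, the invariant chain, was at 998, 2157 and 1472 CPM at Pre and 1249, 1418 and 1905 CPM at WL1. At WL2 it was at 901, 770 and 705 CPM, all below the lowest Pre library, by a small margin, and below the lowest WL1 library. At WL2 it fell against Pre by 0.96 ± 0.26 on the log2 scale, 1.95-fold (edgeR adjusted p = 0.0414). This call was lost without Pre replicate 2, with a log2 fold change of -0.64 and adjusted p = 0.102. It was also lost without Pre replicate 3, WL1 replicate 2 or any 1 of the WL2 libraries, with adjusted p of 0.0613 to 0.140. The same held for edgeR with library totals alone (adjusted p = 0.0588) or the compared phases alone (0.0562) and for the 3 limma fits (0.0730 to 0.174). Against WL1 the log2 fold change was -0.94 ± 0.26 (edgeR adjusted p = 0.0690, and 0.0293 without Pre replicate 2). Cd74 is on chromosome 18 at 60936920 to 60945724 on the plus strand in the authors' table.

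The 3 chains of the peptide-binding dimers had closely similar values. H2-Ab1, the β chain of I-A, was at 452, 965 and 607 CPM at Pre, 501, 574 and 752 CPM at WL1, and 370, 316 and 261 CPM at WL2. H2-Aa, its α chain partner, was at 427, 1046 and 585 CPM at Pre, 528, 621 and 849 CPM at WL1, and 437, 347 and 289 CPM at WL2. H2-Eb1 was at 397, 870 and 500 CPM at Pre, 430, 526 and 724 CPM at WL1, and 371, 314 and 233 CPM at WL2. The WL2 libraries lay below all Pre libraries for H2-Ab1 and H2-Eb1, whereas WL2 replicate 1 was above Pre replicate 1 for H2-Aa. Against Pre, H2-Ab1 fell at WL2 by 1.10 ± 0.26 on the log2 scale, 2.14-fold (edgeR adjusted p = 0.0269). The log2 fold changes of H2-Aa (-0.94 ± 0.31, edgeR adjusted p = 0.0822) and H2-Eb1 (-0.94 ± 0.30, edgeR adjusted p = 0.0719) did not pass the threshold. None of the 3 passed without Pre replicate 2, at -0.75 for H2-Ab1 (edgeR adjusted p = 0.0574), -0.50 for H2-Aa and -0.55 for H2-Eb1. The H2-Ab1 call was likewise lost without WL2 replicate 2 or 3. Against WL1 the 3 chains were at -0.87 to -0.95, not called with the 9 libraries and called without Pre replicate 2 (edgeR adjusted p = 0.0262 for H2-Ab1, 0.0419 for H2-Aa and 0.0495 for H2-Eb1). In the authors' table the 3 genes lie on chromosome 17, H2-Ab1 at 34476663 to 34488393 (plus strand), H2-Aa at 34501718 to 34506797 (minus strand) and H2-Eb1 at 34524841 to 34535648 (plus strand).

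Of the peptide exchange dimer, edgeR called only the β chain lower at WL2. H2-DMb1 was at 66.4, 101 and 82.2 CPM at Pre, 71.7, 81.8 and 109 CPM at WL1, and 49.1, 30.9 and 28.5 CPM at WL2, with no WL2 library reaching another phase. It fell at WL2 by 1.20 ± 0.24 on the log2 scale against Pre, 2.30-fold (edgeR adjusted p = 0.0111). It fell by 1.27 ± 0.24 against WL1, 2.42-fold (edgeR adjusted p = 0.0230). Both calls held without Pre replicate 2, with log2 fold changes of -1.04 (edgeR adjusted p = 0.0306) and -1.27 (edgeR adjusted p = 0.0180). The call against Pre was lost without WL2 replicate 2 (edgeR adjusted p = 0.0603) or replicate 3 (0.0504). The call against WL1 was lost without WL1 replicate 2 (edgeR adjusted p = 0.0603), WL1 replicate 3 (0.0867), WL2 replicate 2 (0.126) or WL2 replicate 3 (0.0995). H2-DMa, the α chain, was at 42.8, 87.6 and 56.9 CPM at Pre, 38.1, 55.2 and 66.3 CPM at WL1, and 40.6, 33.4 and 25.3 CPM at WL2. Its WL2 libraries lay below all Pre libraries, but WL2 replicate 1 exceeded WL1 replicate 1. The log2 fold changes were -0.91 ± 0.28 against Pre (edgeR adjusted p = 0.0678) and -0.68 ± 0.28 against WL1 (0.191). Leaving out Pre replicate 2 gave -0.59 (edgeR adjusted p = 0.182) and -0.68 (0.102). H2-DMb1 lies on chromosome 17 at 34372046 to 34379204 and H2-DMa at 34338515 to 34358075, both on the plus strand of the authors' table. The span of H2-DMa overlaps Brd2 on the opposite strand, which had 30592 reads against 8400 for H2-DMa, so the H2-DMa values are less certain. H2-DMb1 also has a close relative next to it, H2-DMb2, and how reads matching both were assigned is not given.

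Read together, 4 of the 7 genes were called lower at WL2 against Pre (Cd74, Ciita, H2-Ab1 and H2-DMb1), whereas 6.66% of all genes tested were called lower. The median log2 fold change was -0.96 for the 7 genes and 0.01 for all genes. In 6 of the 7, the Pre and WL2 libraries did not overlap, as for 15.8% of all genes in that direction. The genes called without Pre replicate 2 were Ciita and H2-DMb1, 2 of 7 beside 6.03% of all genes called lower, with a median of -0.64. Between WL1 and WL2, 2 of 7 were called lower (Ciita and H2-DMb1) beside 2.37% of all genes, and the libraries did not overlap for 6 of 7 beside 16.4%. In that comparison 6 of 7 were called lower without Pre replicate 2, beside 3.84% of all genes, with nearly the same fold changes. A test for any difference among the 3 phases called 4 of 7 (Cd74, Ciita, H2-Ab1 and H2-DMb1) beside 13.1% of all genes tested, and the same 4 beside 12.9% without Pre replicate 2. The comparisons share libraries, so they are not separate evidence, and the 7 genes were measured in the same libraries.

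At WL1 against Pre none of the 7 genes was called, where 7.29% of all genes were. Among 7 genes a count of 0 is near that share and does not set them apart. None had an unadjusted p under 0.05 in edgeR, as 24.3% of all genes did, and DESeq2 and limma called 0 of 7. The Pre and WL1 libraries overlapped for each of the 7. Of all genes 13.9% lay wholly lower and 14.7% wholly higher at WL1. Log2 fold changes ran from -0.23 ± 0.28 (H2-DMa) to 0.11 ± 0.22 (Ciita) with the 9 libraries. All 7 were positive without Pre replicate 2, from 0.09 (H2-DMa) to 0.40 (H2-Aa), again with 0 called beside 5.40% of all genes. The direction of these small differences thus turned with 1 library.

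**Figure D2:**
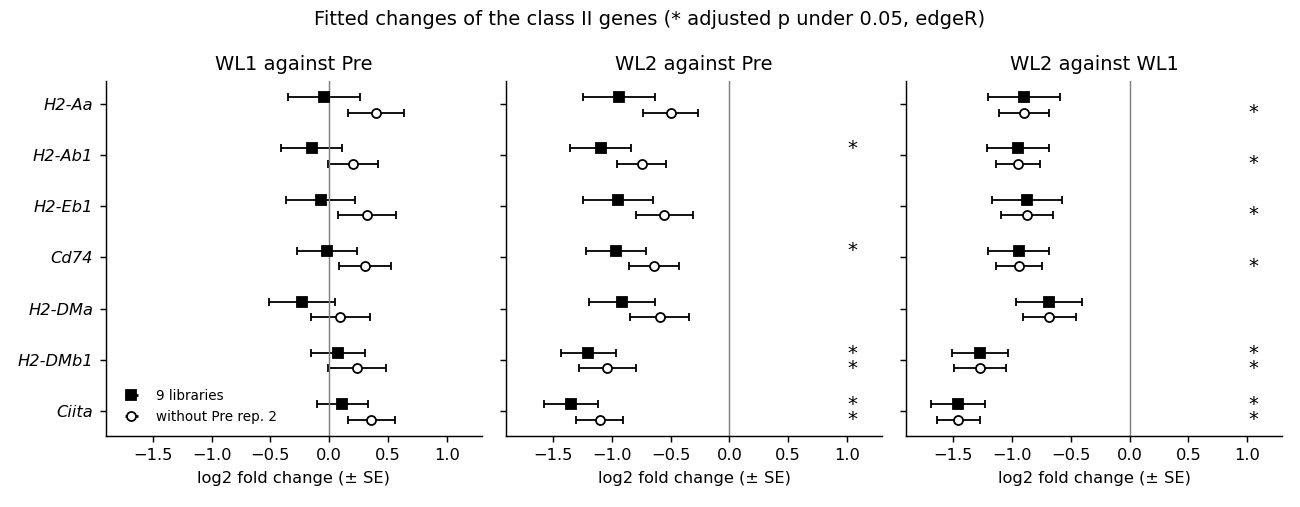
Log2 fold change (± SE, edgeR) of each class II gene for WL1 against Pre, WL2 against Pre and WL2 against WL1, with the 9 libraries (filled squares) and without Pre replicate 2 (open circles). Asterisks at the right mark adjusted p under the threshold of 0.05, and the values for WL2 lie left of 0 in every row while those for WL1 against Pre lie on both sides.

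Ratios of reads within a library do not depend on its depth or scaling, and were computed after the levels had been seen. Reads of H2-Aa per read of H2-Ab1 were 0.946 to 1.08 at Pre, 1.06 to 1.13 at WL1 and 1.10 to 1.18 at WL2. Reads of Cd74 per read of H2-Ab1 were 2.208 to 2.426 at Pre, 2.471 to 2.534 at WL1 and 2.433 to 2.705 at WL2. In both ratios each WL2 library was above each Pre library, by a small margin. Ciita reads per 1000 Cd74 reads were 24.7, 20.7 and 22.2 at Pre, 27.6, 22.0 and 23.5 at WL1, and 17.2, 17.6 and 15.7 at WL2. The coactivator was thus lower relative to Cd74 in each WL2 library than in the other 6. H2-DMa reads per read of H2-DMb1 were 0.645 to 0.872 at Pre, 0.531 to 0.675 at WL1 and 0.827 to 1.08 at WL2. An exact permutation test of 3 against 3 libraries cannot give less than p = 0.1, and with 30 such tests the lowest adjusted p was 0.2. Correlations of log2 CPM between pairs of the 7 genes (21 pairs) were 0.869 to 0.994 over the 9 libraries and 0.859 to 0.990 without Pre replicate 2, a description over points that share library and depth.

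Macrophage markers are given beside the 7 genes. A list of 12 macrophage genes summed to 1791, 3360 and 2813 CPM at Pre, 3181, 3648 and 5916 CPM at WL1, and 3481, 2022 and 2282 CPM at WL2, with WL2 replicate 1 the highest of its phase. Of its 12 genes 0 were called in any pairwise comparison by edgeR, though 5, 1 and 6 had an unadjusted p under 0.05 for WL1 against Pre, WL2 against Pre and WL2 against WL1. DESeq2 called 3 higher at WL1 than at Pre, 0 between Pre and WL2, and 1 higher and 1 lower at WL2 than at WL1, and limma called 0. The median log2 fold changes were 0.54, 0.04 and -0.58, and 0.80, 0.16 and -0.58 without Pre replicate 2, where edgeR again called 0 (7, 0 and 6 at an unadjusted p under 0.05). Whether the class II genes changed differently from the macrophage list was tested only through the ratio below. The 3 most abundant were Lyz2 (lysozyme), C1qb (a complement subunit) and Csf1r (the receptor of the macrophage growth factor). Adgre1 encodes F4/80. It was at 67.4, 141 and 137 CPM at Pre, 225, 243 and 452 CPM at WL1, and 199, 89.9 and 93.5 CPM at WL2. In edgeR Adgre1 passed only the test for any difference among phases, whereas DESeq2 called it higher at WL1 than at Pre. Class II reads per read of the macrophage list were 1.34, 1.57 and 1.19 at Pre, 0.896, 0.906 and 0.752 at WL1, and 0.628, 0.902 and 0.680 at WL2. All 6 libraries after the diet change were below the 3 Pre libraries in this ratio, with and without Pre replicate 2 (exact permutation p = 0.1 for each phase against Pre over the 3 against 3 libraries, the smallest possible, adjusted p = 0.2). The ratio at WL2 against WL1 had an exact permutation p of 0.3.

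**Figure D3:**
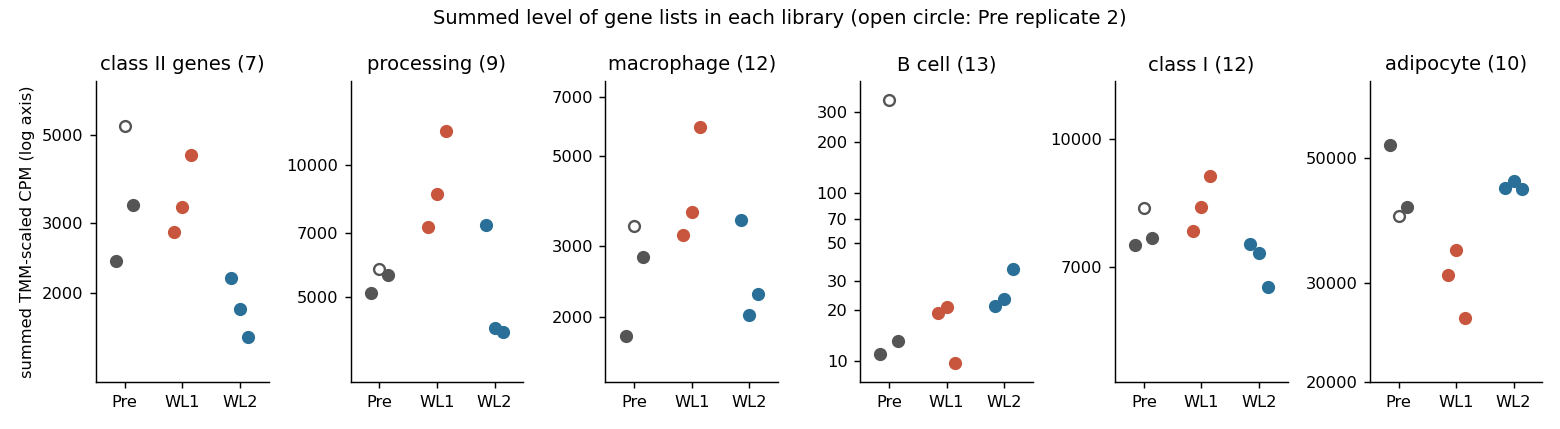
Summed TMM-scaled CPM (log axis, a separate range per panel) of 6 gene lists in the 9 libraries, with the number of genes in parentheses and Pre replicate 2 as an open circle. The class II sum is lowest in the 3 WL2 libraries, the processing and macrophage sums are highest in WL1 replicate 3, and the B-cell sum (without Ebf1, Ighm and Cd22) is 354 CPM in Pre replicate 2 against at most 35.3 CPM elsewhere.

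**Figure D4:**
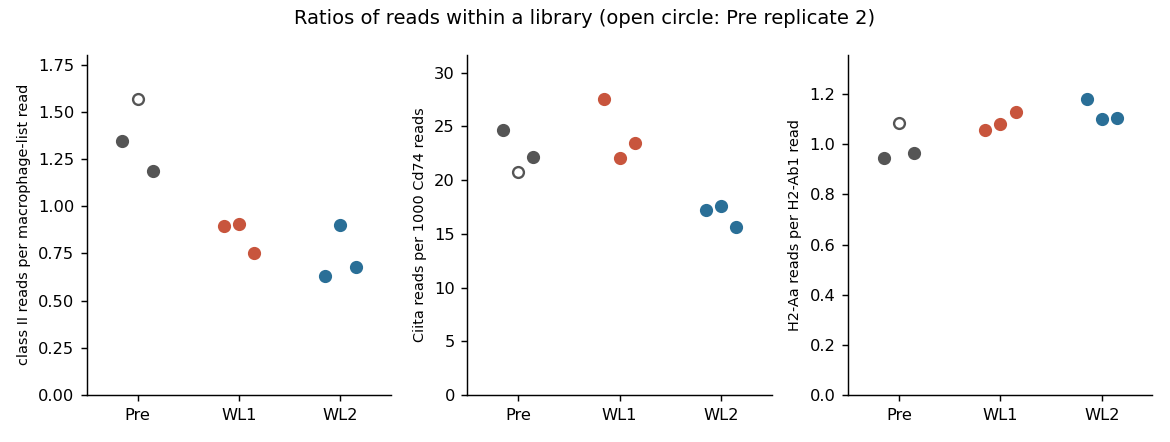
Ratios of reads within each of the 9 libraries (linear axes from 0, 1 point per library, Pre replicate 2 open): class II reads per read of the macrophage list, Ciita reads per 1000 Cd74 reads, and H2-Aa reads per H2-Ab1 read. The first is at least 1.19 at Pre and at most 0.906 afterwards, and the second is at most 17.6 at WL2 and at least 20.7 in the other phases. The third is 0.946 to 1.08 at Pre, 1.06 to 1.13 at WL1 and 1.10 to 1.18 at WL2.

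Of 9 genes of processing and turnover, most of them enzymes that prepare class II for loading, 0 were called in any pairwise comparison by edgeR, with 7, 0 and 6 at an unadjusted p under 0.05 in the same order of comparisons. DESeq2 called 4 higher at WL1 than at Pre and 3 lower at WL2 than at WL1, and limma called 0. Their median log2 fold changes were 0.77, 0.08 and -0.79, and 0.81, 0.20 and -0.79 without Pre replicate 2, where edgeR also called 0 (8, 1 and 6 at an unadjusted p under 0.05). Ctss, cathepsin S, was at 230, 456 and 419 CPM at Pre, 642, 734 and 1278 CPM at WL1, and 710, 264 and 258 CPM at WL2. The WL1 libraries were all above the Pre libraries, yet the log2 fold change of 1.26 ± 0.43 had an edgeR adjusted p of 0.103. Ctsb, a lysosomal cathepsin, differed by 0.68 ± 0.22 (log2) between Pre and WL1 and by -0.79 ± 0.22 between WL1 and WL2 (edgeR adjusted p = 0.0917 and 0.0752). In edgeR Ctsl, another cathepsin, passed only the test among the 3 phases (edgeR adjusted p = 0.0423, and 0.0571 without Pre replicate 2). DESeq2 called both Ctsb and Ctsl higher at WL1 than at Pre and lower at WL2 than at WL1. Ctss, Ctsb and Ctsl were the most abundant of the list.

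The remaining class II genes were scarce and were raised in Pre replicate 2. H2-Oa and H2-Ob encode H2-O, which restrains H2-DM chiefly in B cells. H2-Ob was at 2.54, 19.5 and 3.42 CPM at Pre, 2.61, 3.72 and 2.64 CPM at WL1, and 2.74, 3.57 and 4.46 CPM at WL2. H2-Oa was at 7.05 CPM and H2-Eb2 at 8.49 CPM in Pre replicate 2, against at most 0.735 and 0.602 CPM in the others. H2-DMb2, a second β chain gene of H2-DM, was at 5.72, 31.1 and 6.65 CPM at Pre, 3.31, 3.58 and 2.70 CPM at WL1, and 3.50, 4.87 and 3.76 CPM at WL2. It was lower at WL1 than at Pre, with a log2 fold change of -2.17 ± 0.57 (edgeR adjusted p = 0.0463) that was -0.95 (0.0436) without Pre replicate 2. It was the only 1 of the 4 tested genes of this group called in a pairwise comparison. The median log2 fold changes of the 4 against Pre were -2.23 at WL1 and -2.26 at WL2. Without Pre replicate 2 these medians were 0.33 and 0.26. Their RefSeq windows, 4 in all, held GATTGG in 4 and the X and Y arrangement in 3.

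Among the DNA-binding partners of Ciita, Nfya, the A subunit of NF-Y, rose at WL1. It was at 38.3, 45.4 and 45.9 CPM at Pre, 61.8, 60.8 and 76.0 CPM at WL1, and 56.7, 45.0 and 43.6 CPM at WL2. Its log2 fold change at WL1 was 0.61 (edgeR adjusted p = 0.0288), and 0.65 (0.0465) without Pre replicate 2. The other 6, namely the RFX subunits Rfx5, Rfxap and Rfxank, the NF-Y subunits Nfyb and Nfyc, and Creb1, passed in no comparison. Their levels over the 9 libraries were 9.42 to 13.4 CPM for Rfx5, 24.5 to 34.0 for Rfxap, 8.61 to 12.1 for Rfxank, 18.9 to 27.2 for Nfyb, 21.0 to 25.4 for Nfyc and 32.7 to 43.4 for Creb1. The group's median log2 fold change was 0.06 at WL1 and 0.06 at WL2 against Pre, or 0.06 and 0.10 without Pre replicate 2.

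In interferon γ signalling, the known inducer of Ciita, 7 of 8 genes were tested and 0 were called in each comparison, with 1 at an unadjusted p under 0.05 in each of the 3. DESeq2 called 1 lower at WL2 than at WL1 and 0 otherwise, and limma called 0. Leaving out Pre replicate 2 gave 0 calls and 1 gene at an unadjusted p under 0.05 in each comparison by edgeR. Ifngr1, Jak1 and Ifngr2 were the most abundant, and Ifngr1, a chain of the receptor, ranged from 277 to 387 CPM. Of 12 genes of MHC class I presentation, edgeR called 0, 1 and 0 in the 3 comparisons (3, 3 and 2 at an unadjusted p under 0.05), DESeq2 1, 2 and 0, and limma 1, 1 and 0, with median log2 fold changes of -0.09, -0.13 and -0.13. The medians were 0.08, -0.01 and -0.13 without Pre replicate 2, with edgeR counts again of 0, 1 and 0. The 1 gene called by edgeR was Tapbp (tapasin, which loads class I), at 355 to 398 CPM at Pre and 271 to 283 CPM at WL2 (log2 fold change -0.42, edgeR adjusted p = 0.0229; without Pre replicate 2, -0.37, 0.0493). B2m, the light chain of class I, ranged from 2086 to 2539 CPM, H2-D1 from 1808 to 2718 CPM and H2-K1 from 1215 to 2045 CPM. Class I summed to 7456 to 8260 CPM at Pre, 7738 to 9028 at WL1 and 6627 to 7461 at WL2.

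Of 9 costimulation and CD4 coreceptor genes, edgeR called Lag3, an inhibitory receptor that binds class II, lower at WL1 and at WL2 than at Pre. DESeq2 called Cd274 and Lag3 lower at WL1 and Lag3 at WL2, while limma called Lag3 at WL1 and 0 genes at WL2. The list's median log2 fold changes against Pre were -0.58 at WL1 and -0.84 at WL2, and 0.13 and -0.14 without Pre replicate 2. It was at 9.79, 15.3 and 8.08 CPM at Pre, 3.09, 5.97 and 4.05 CPM at WL1, and 5.58, 5.15 and 5.56 CPM at WL2, with no overlap between Pre and either later phase. Its log2 fold changes against Pre were -1.33 at WL1 and -1.02 at WL2, and neither call held without Pre replicate 2 (edgeR adjusted p = 0.0507 and 0.122). Cd274 (PD-L1), Icosl and Lag3 were the most abundant of the group.

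Markers of other cells that carry class II, or contact it, are given for comparison. Of 12 dendritic-cell genes, Cd209a was lower at WL1 and at WL2 than at Pre, at 10.8 to 13.6, 5.90 to 6.41 and 6.62 to 9.61 CPM in the 3 phases. It passed at WL1 (edgeR adjusted p = 0.0203) and not at WL2 (0.101) without Pre replicate 2. Fscn1, Itgax and Clec10a were the most abundant of that list, and Itgax, which macrophages also express, reached 422 CPM in WL1 replicate 3. The list's median log2 fold changes against Pre were -0.07 at WL1 and -0.46 at WL2, and 0.13 and -0.07 without Pre replicate 2. DESeq2 called 1 gene higher and 2 lower at WL1, and 3 lower at WL2, while limma called Cd209a alone at each. The dendritic-cell sum was 412 to 529 CPM at Pre, 570 to 771 at WL1 and 414 to 505 at WL2. In the B-cell list 15 of 16 genes had negative log2 fold changes against Pre at both later phases (medians -2.98 and -2.23). The positive genes were 13 and 14 of the 16 without Pre replicate 2, with medians of 0.87 and 1.51. Ighm, the heavy chain of IgM, was at 1120, 2502 and 1246 CPM at Pre, 159, 160 and 285 CPM at WL1 and 234, 233 and 137 CPM at WL2. Its log2 fold changes without Pre replicate 2 were -2.56 and -2.55 (edgeR adjusted p = 0.00192 and 0.000896). Ebf1, also a factor of adipocyte precursors, was called higher at WL2 than at Pre with the 9 libraries and not without Pre replicate 2 (edgeR adjusted p = 0.113). Ms4a1 and Fcmr of the B-cell list were called higher at WL2 than at Pre without Pre replicate 2. In the T-cell list 10 of 11 genes had negative log2 fold changes against Pre at both later phases (medians -1.13 and -1.42). The negative genes were 2 and 5 of the 11 without Pre replicate 2, with medians of 0.68 and 0.01. DESeq2 called Cd5 and Trac lower at WL2 with the 9 libraries, and edgeR and limma called 0 there (5 and 1 at an unadjusted p under 0.05). Il7r, the interleukin 7 receptor, rose at WL1, from 11.7, 24.4 and 28.3 CPM to 63.1, 76.7 and 147 CPM, a call lost without Pre replicate 2 (edgeR adjusted p = 0.0601). Cd2 and Cd247 were the other abundant T-cell genes, at no more than 17.7 and 11.9 CPM. Of the lymph node stroma list 0 genes were called by edgeR, with 4, 1 and 1 at an unadjusted p under 0.05 in the 3 comparisons. Without Pre replicate 2 edgeR again called 0, with 0, 1 and 2 at an unadjusted p under 0.05. DESeq2 called 1 higher at WL2 than at WL1, and limma called 0. The gene called by DESeq2 was Lyve1, which is also in the macrophage list and is counted there too.

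Among all genes outside the 7, those whose log2 CPM were most like the mean of the 7 class II genes were ranked by Pearson's r among 11509 genes. Over the 9 libraries these were Irf8 (r = 0.987), Csk (0.984), Steap3 (0.984), Ppfia4 (0.981) and Cmpk1 (0.972). Without Pre replicate 2 they were Csk (0.994), Irf8 (0.990), Steap3 (0.988), Mgat5 (0.987) and Arhgap11a (0.980) among 11496 genes. Irf8, a transcription factor of myeloid and B cells, was at 50.7, 93.7 and 64.9 CPM at Pre, 50.7, 63.9 and 94.5 CPM at WL1, and 41.0, 26.2 and 21.0 CPM at WL2. As for most of the class II genes, its WL2 libraries lay below all other libraries. These values are a description over few libraries that share depth, and carry no test.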

How the data were processed

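The authors deposited 1 table of read counts per gene and 1 of FPKM for the same 9 libraries of total RNA. The counts are whole numbers without normalization, and the FPKM values were scaled by the authors to gene length and library size. The submitters' processing notes name HISAT2, HISAT, TopHat2, CASAVA, GRCm38 and mm10 without versions or roles; no source used here names the counting program. Coordinates equalled those of GENCODE M21 (GRCm38) for 1472 of 52073 gene identifiers found in both and for 0 of the 7 class II genes, so positions are those of the authors' table with no build named. All columns matched a sample label, which gave group and replicate.

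The 18510 genes that reached 0.5 CPM in any library entered the quasi-likelihood test of edgeR 4.0.16 in R 4.3.3 (functions glmQLFit, then glmQLFTest; TMM scaling; the 9 libraries in 1 model with phase as the sole term; common dispersion 0.0478), with Benjamini-Hochberg adjustment over all genes tested and a threshold of 0.05. DESeq2 1.42.0 and limma 3.58.1 on log2(FPKM + 1) were alternatives, with others on filter, scaling, block and left-out libraries. Log2 CPM used a prior count of 4. Single ratios were compared by exact two-sided permutation tests (SciPy 1.17.1). Libraries of a phase were checked for duplicates, and 0 pairs were identical. The fits were also run on simulated counts at the common dispersion, with changes set in WL2 alone and larger than those of the class II genes. No simulated library stood apart as Pre replicate 2 did, so that run does not bear on its effect.

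The 7 genes, the gene lists and the tests were chosen with earlier results of these data known. Named genes are the 7, all other class II genes and regulators, from each other list those past the threshold and the 3 with the highest mean CPM, and the 5 most alike in pattern with a mean of at least 5 CPM. Limits of 3 counts cover counting error only, whereas the SE and SD values include the spread between libraries.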

Additional observations from a re-analysis of the deposited data

How the results depend on the processing

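The fall of Ciita at WL2 against Pre passed under all 19 alternatives, with log2 fold changes of -1.53 to -0.89. Against WL1 it was lost without WL2 replicate 2 or 3 and with limma on log2(FPKM + 1) without a filter. The last setting also lost H2-DMb1 against WL1 (adjusted p = 0.0719) and H2-Ab1 against Pre (0.0931). The number of class II genes called at WL2 against Pre (4) was 7 without a filter on low counts and with DESeq2, 2 with limma without a filter, and 1 to 7 when 1 library was left out. Leaving out Pre replicate 1 gave 7, Pre replicate 2 gave 2, and WL2 replicate 2 or 3 gave 1. At WL2 against WL1 the number (2) was 6 without a filter and with DESeq2, 5 when the compared phases were fitted alone, 0 with limma without a filter, and 0 to 6 with 1 library left out. Leaving out Pre replicate 1 gave 4, Pre replicate 2 gave 6, WL1 replicate 2 or 3 gave 1, and WL2 replicate 2 or 3 gave 0. For any difference among the phases the number (4) was 7 without a filter and with DESeq2, 2 with limma at a pseudocount of 1 or 0.1 or without a filter, and 1 to 5 with 1 library left out. Leaving out Pre replicate 3, WL1 replicate 2 or 3 or WL2 replicate 1 gave 2, and WL2 replicate 2 or 3 gave 1. At WL1 against Pre it was 0 to 0 with 1 library left out. The cause was not tested.

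Over all genes, 1350, 1853 and 681 were called at WL1 against Pre, WL2 against Pre and WL2 against WL1. At WL1 against Pre the number was 2344 with DESeq2 and 782 with limma without a filter. At WL2 against WL1 it was 1668 without a filter, 1935 with DESeq2, 1053 with the compared phases alone and 167 with limma without a filter. With 1 library left out the ranges were 512 to 1500, 743 to 1688 and 37 to 1351. The lowest values came without WL1 replicate 3, WL2 replicate 2 and WL2 replicate 2, and the highest of the last without WL2 replicate 1.

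Reversals were confined, among the 7 genes, to WL1 against Pre, where no value was called. With library totals alone, H2-Aa was at 0.050, H2-Eb1 at 0.019 and Cd74 at 0.076 (log2). With limma, H2-Aa was at 0.0098 at a pseudocount of 1 with or without a filter and 0.010 at 0.1, and Cd74 was at 0.010 in the 3 limma fits. With 1 library left out the values ran from -0.25 to 0.30 for Cd74, -0.073 to 0.36 for Ciita, -0.29 to 0.40 for H2-Aa, -0.37 to 0.20 for H2-Ab1, -0.44 to 0.092 for H2-DMa, -0.12 to 0.23 for H2-DMb1 and -0.31 to 0.32 for H2-Eb1.

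The labels number the replicates 1 to 3 in each phase and do not say that libraries of the same number are paired. The correlations of deviations between libraries of the same number were -0.28 to 0.11. With 3 libraries a phase, these values cannot settle whether such libraries share a batch. With the replicate number as a block, 844 and 330 genes were called at WL1 against Pre and WL2 against WL1. Of the class II genes 2 were called at WL2 against Pre, 1 at WL2 against WL1 and 2 for any difference, with Cd74 (adjusted p = 0.0791) and H2-Ab1 (0.0560) lost against Pre and H2-DMb1 (0.0595) against WL1, and at WL1 against Pre H2-Aa was at 0.011 and Cd74 at 0.013. Not every library correlated best with its own number. Depth limits the other class II genes: H2-Oa had 2 reads in Pre replicate 1 and 3 in Pre replicate 3, and its fold changes are imprecise.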
